A study of Mus musculus with 4 samples.

Results

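Serpins are a large family of protease inhibitors. A serpin offers its reactive loop to a protease as bait, is cut, and traps the enzyme in a covalent complex, so that each inhibitor is used up by the enzyme it stops. Clade a members are mostly secreted plasma proteins, clade b members lack a classical signal peptide and act largely inside cells, and the remaining clades include regulators of clotting, plasminogen activation and complement, and a collagen chaperone. Skin relies on this balance, since the kallikreins that shed the outer epidermis, the plasminogen activators of migrating keratinocytes and the proteases of mast cells and lymphocytes all have serpin inhibitors. In the mouse the Serpina3 locus has expanded into a row of closely related genes, where humans carry a lone SERPINA3.

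The serpin genes were described here in hair follicle stem cells (HF-SCs). They were taken as every row of the deposited expression table whose name is Serpin followed by a clade letter from a to i and a number, with a mean normalized count above 0. This rule found 42 genes of the 63 serpin rows, in a table of 24421 genes of which 17044 had a mean above 0. They fell into 11 Serpina3 genes, 4 other clade a genes, 10 clade b genes on chromosome 1, 8 clade b genes on chromosome 13 and 9 genes of other clades. Members were thus selected on this mean, so their levels are a description.

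HF-SCs were sorted from mouse back skin and sequenced in bulk, from 2 control libraries and 2 libraries of miR-205-induced mice. The mice are labelled C57BL/6 and carried a Krt14-H2BGFP allele, which puts a fluorescent histone under the keratin 14 promoter. The induced mice carried a pTRE2-miR-205 transgene, made by injection into FVB mice, and a Krt14-rtTA driver, so that doxycycline switches the microRNA on in all keratin 14-expressing skin epithelium and not in HF-SCs alone. Doxycycline chow was given for 2 d from postnatal day 42 and the cells were collected at day 44. The labels call the control mice untreated, whereas the extraction protocol has both groups fed doxycycline. Whether each library came from 1 mouse or from several is not given in the sources used here. The table holds 1 mean over the 4 libraries for each gene, and the whole reads of each library were solved from that mean for genes under 1000. The libraries are numbered 1 to 4 from the deepest to the shallowest. The mean does not say which library was a control, so the libraries are described one by one and induced mice were not compared with controls.

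The 14591 genes solved held 3337862, 3165843, 2594711 and 1912745 reads in libraries 1 to 4. The 12 HF-SC markers all had means of at least 50, with Krt15 at 119883 and the sort markers Cd34 and Itga6, which encodes integrin α6, at 14575 and 12910. Ly6a, which encodes the Sca1 that the sort selected against, had a mean of 136. Genes of other skin cells were present too and differed between libraries. Summed over the genes solved, 5 of 6 melanocyte markers gave normalized counts of 843, 691, 2020 and 342 in libraries 1 to 4, and 6 of 6 mast cell markers gave 138, 176, 454 and 87.9. The sums were 1858, 2361, 2431 and 1150 for 7 of 8 sebaceous markers, 771, 1446, 1253 and 691 for 7 of 10 myeloid markers, and 883, 1017, 1893 and 610 for 2 of 7 suprabasal markers. They were 1139, 914, 1288 and 669 for 4 of 7 fibroblast markers, 1178, 1129, 1725 and 705 for 3 of 6 markers of interfollicular basal cells and infundibulum, and 109, 105, 141 and 44.7 for 4 of 4 endothelial markers. For T cells, 3 markers summed to between 12.9 and 19.5 and Cd8a was listed at 0. T cells apart, library 4 was the lowest for 8 of these 8 lists of other cells and library 3 the highest for 7. Markers with means too large to be solved are missing from these sums. Among them were Krt6a at 54908, Sbsn at 10749, Krt10 at 7246, Col1a1 at 5186 and Cd74 at 2744. Over all listed markers, means summed to 67412 for interfollicular and infundibulum, 26979 for suprabasal, 14285 for fibroblast and 6116 for myeloid. They summed to 5035 for sebaceous, 2999 for melanocyte, 214 for mast and 99.9 for endothelial markers. Those of the HF-SC markers summed to 463083. The part of other cells in the serpin levels was not tested, and in bulk RNA fewer cells of a type and less RNA per cell cannot be told apart.

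Clade b genes of chromosome 1 carried most of the serpin signal. Their means summed to 32017, which was 78.4% of the 40815 summed over all 42 genes, while the Serpina3 genes held 3.52%, the other clade a genes 0.377%, clade b on chromosome 13 7.68% and the other clades 9.97%. Per kilobase of exon, the scale used here to compare genes, Serpinb2 had a mean of 4226 and Serpinb5 of 4068. Serpinb2 is PAI-2, an inhibitor of the plasminogen activator urokinase, and Serpinb5 is maspin, a keratinocyte serpin without inhibitory activity. Next came Serpinb8 at 1887 per kb, Serpinh1, the collagen chaperone HSP47, at 1402, Serpinb11 at 944, Serpinb10 at 773 and Serpinb6a at 468. The highest Serpina3 gene, Serpina3h, stood at 283 per kb. Of the 63 serpin rows, 22 (34.9%) had a mean of at least 50, against 42.3% of all genes in the table, and 66.7% had a mean above 0, against 69.8%.

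**Figure D1:**
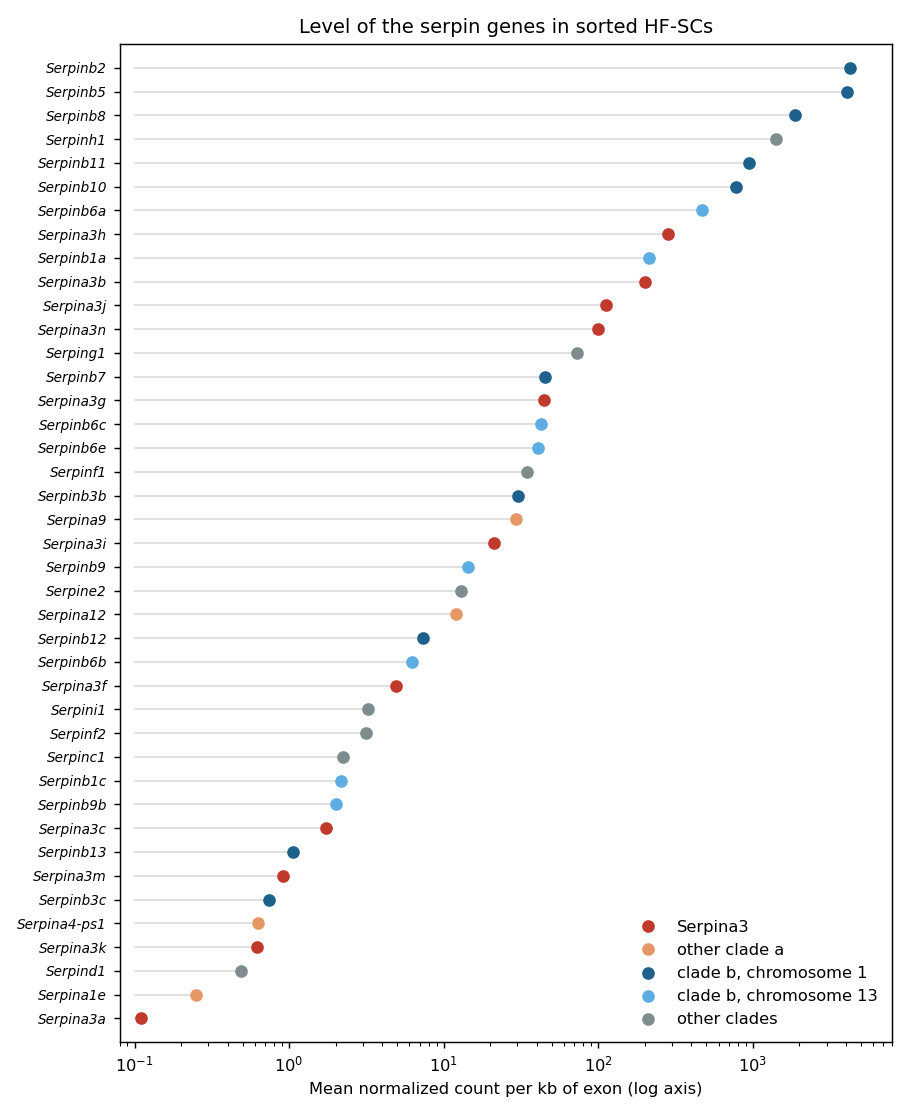
Mean normalized count over the 4 libraries per kilobase of annotated exon (log axis) for 41 of the 42 serpin genes, coloured by clade and cluster; each point is 1 gene. The 7 highest genes, from Serpinb2 at 4226 to Serpinb6a at 468, hold 5 of the 10 clade b genes of chromosome 1 and no Serpina3 gene.

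The 12 clade b genes of chromosome 1 form a row, and their levels spanned almost the whole range of the family. In order along the chromosome they run from Serpinb5 through Serpinb12, Serpinb13, the Serpinb3 genes, Serpinb11, Serpinb7, Serpinb2 and Serpinb10 to Serpinb8. Between the abundant Serpinb5 and Serpinb11 sat genes at or near 0, with Serpinb13 at 1.06 per kb, Serpinb3c at 0.743, and Serpinb3a and Serpinb3d listed at 0. Serpinb3b, from the squamous cell carcinoma antigen subfamily, stood at 30.3 per kb and Serpinb7, whose loss in humans causes a thickening of the palm and sole skin, at 44.9. The means of the 5 abundant genes were 11187 for Serpinb5, 9927 for Serpinb2, 6078 for Serpinb8, 2697 for Serpinb10 and 1967 for Serpinb11, which were higher than those of 93.1% to 99.2% of the 17044 genes. These means were too large to be solved into libraries, so no spread can be given for them. Exons of Serpinb10 and Serpinb2 overlap in the GENCODE vM1 annotation, as do those of Serpinb3b and Serpinb3c. As RefSeq bounds them on GRCm38.p6, the genes of each pair lie apart.

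The promoters of this cluster shared a sequence that the choice of genes did not use. In RefSeq sequence of GRCm38.p6, the 250 bases before the first listed start of 33 of the 42 genes were searched on both strands for 4 motifs. These were TATAAA for the TATA box, the letters CCAAT for the box of that name, TTCNNNGAA for STAT factors and, for AP-1, TGANTCA. No motif contains another. The listed start lies inside the gene as RefSeq bounds it for 12 of the 33, by more than 250 bases for Serpina3j, Serpinb2, Serpinb6b, Serpinb9 and Serpinb6c and by 9 to 80 bases for the other 7, so that these windows hold sequence of the gene itself. AP-1 is the Fos and Jun family of transcription factors. TGANTCA, a loose form of its motif that leaves the middle base open, was in 7 of the 9 chromosome 1 clade b promoters. It was in 0 of the 24 other promoters: 8 of Serpina3, 2 of other clade a, 7 of clade b on chromosome 13 and 7 of other clades. It was in 6.87% of 27025 mouse promoters, in 4.36% of those of genes with a mean of at least 50 here, and in 4 of 19 promoters of serpin rows listed at 0, all 4 of the Serpina1 group. The matches are shown with the motif in capitals and 10 bases on each side, on the strand of the gene, because every abundant gene of the cluster holds at least 1.
Serpinb5, chr1:106861025-106861051, + strand: aagttgggccTGAATCAtgtcttccaa
Serpinb2, chr1:107511319-107511345, + strand: agtaaaatgtTGAATCAtacaaagaat
Serpinb8, chr1:107589973-107589999, + strand: gtgggaagtgTGAGTCAcagagtgttc
Serpinb10, chr1:107528939-107528965, + strand: cttgtgaaagTGAATCAagggtggggc
Serpinb11, chr1:107362123-107362149, + strand: aagtatagtgTGATTCAgaaagcacag
Serpinb11, chr1:107362228-107362254, + strand: ggtgaagagcTGAATCAtaacaacaca
Serpinb7, chr1:107422634-107422660, + strand: agggagtgtcTGAGTCAgaggctttat
Serpinb12, chr1:106934394-106934420, + strand: aaaaacaatcTGATTCAcgatcattat

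The motifs of Serpinb2 and Serpinb8 lie inside the gene as bounded. The first base of the motif lay from 23 bases before the start in Serpinb8 to 181 in Serpinb11. Of the 8 matches, those of Serpinb8 and Serpinb7 had the letters of the classical AP-1 site, TGAGTCA, and the other 6 had A or T in the middle. The share of all promoters with the classical site alone was not counted. TGANTCA did not mark level alone, since Serpinb7 and Serpinb12, with means of 87.9 and 18.5, held it as well. With the rows at 0 included, 7 of 11 promoters of the cluster held it. The 4 without it, those of Serpinb3a, Serpinb3b, Serpinb3c and Serpinb3d, all held TATAAA, at 41 and 31 bases before the start in Serpinb3b and Serpinb3c. TATAAA was not particular to them, since Serpinb2, Serpinb7 and Serpinb12 held both motifs. Their TATAAA nearest the start lay 29, 33 and 220 bases before it. Of all promoters, 12.97% held TATAAA. A match is a description of the sequence, and no binding was measured.

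**Figure D2:**
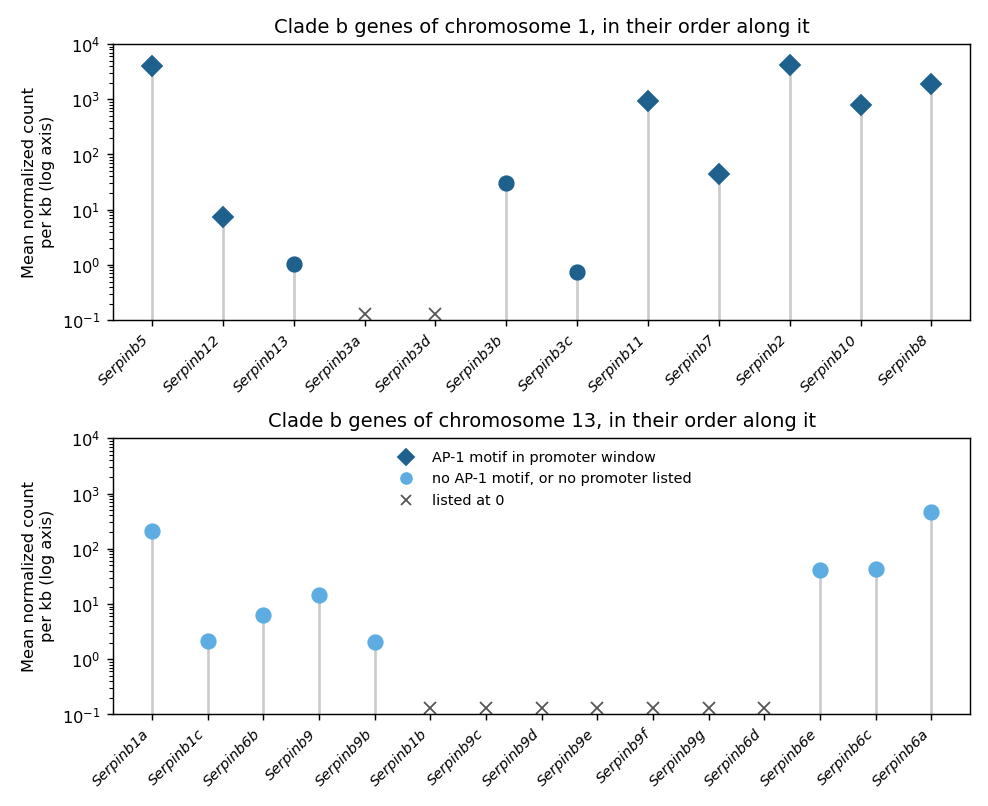
Mean normalized count per kilobase of exon (log axis) of the 12 clade b genes of chromosome 1 (top) and the 15 of chromosome 13 (bottom). Genes are in their order along each chromosome and not to scale in distance. Diamonds mark TGANTCA, the AP-1 motif with an open middle base, in the 250 bases before the start. Circles mark no motif or no listed promoter, and crosses genes listed at 0. The 5 highest genes of chromosome 1 are diamonds, and 7 of the 15 genes of chromosome 13 are at 0.

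On chromosome 13, 8 of 15 clade b genes had a mean above 0. Serpinb6a, an intracellular inhibitor of cathepsin G and related proteases, had a mean of 2532. Its exons in GENCODE vM1 overlap those of 1110046J04Rik, Nqo2 and Ripk1. Serpinb1a, an inhibitor of neutrophil elastase, had normalized counts of 425, 375, 526 and 318 in libraries 1 to 4, a 1.65-fold range. Serpinb6e, a relative of Serpinb6a, had 48.5, 73.0, 102 and 19.5, and Serpinb6c had 98.7, 44.1, 36.2 and 61.4. These neighbours therefore ran in different orders over the libraries, Serpinb6e highest in library 3 and Serpinb6c lowest there. Serpinb9, the inhibitor of granzyme B, had 27.5, 50.9, 49.7 and 72.6. Serpinb1b, Serpinb6d and the run from Serpinb9c to Serpinb9g were listed at 0. A count of 0 in a library allows up to 3 reads, a normalized count of 2.43, 2.54, 3.10 and 4.19 in libraries 1 to 4.

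All 11 Serpina3 rows of the table had a mean above 0, unlike the 6 Serpina1 rows beside them on chromosome 12. Serpina1 genes encode the alpha-1-antitrypsins of the liver, and only Serpina1e was above 0, with 2 reads in library 1 and 0 in the others. The Serpina3 means ran from 417 for Serpina3b to 0.202 for Serpina3a, and 5 of the 11 were at least 50. These 5, Serpina3b, Serpina3g, Serpina3h, Serpina3j and Serpina3n, lie in this order on chromosome 12. Lower members lie between them, except between Serpina3g and Serpina3h.

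Among the Serpina3 genes with a mean of at least 50, Serpina3b differed most between libraries. Its reads were 170, 874, 661 and 75 in libraries 1 to 4, or normalized counts of 137, 741, 684 and 105. Libraries 2 and 3 were high and libraries 1 and 4 low, and the 95% counting intervals of the high and low libraries, 118 to 160 and 82.4 to 131 against 693 to 792 and 633 to 738, did not overlap. The highest library was 7.08-fold over the lowest (exact 95% counting interval 5.59 to 9.09). Among the 7889 genes with means from 50 to under 1000, 99.7% had a lower ratio.

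Serpina3h, annotated as a transcribed pseudogene, was the most even of the abundant Serpina3 genes. Its normalized counts were 452, 315, 418 and 438, lowest in library 2, a 1.44-fold range. Serpina3j had 161, 371, 302 and 130, with libraries 2 and 3 high as for Serpina3b and a 2.86-fold range (2.28 to 3.61). Serpina3n, a secreted inhibitor of granzyme B and leukocyte elastase, had 300, 120, 234 and 170, with library 1 high and library 2 low. Its range was 2.49-fold (2.05 to 3.04). Serpina3g, an intracellular inhibitor of cathepsins, had 142, 76.3, 78.6 and 117, and here libraries 1 and 4 were the higher ones. The Serpina3 genes thus did not rank the libraries alike, and libraries 2 and 3 were the higher ones for Serpina3b and the lower ones for Serpina3g.

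**Figure D3:**
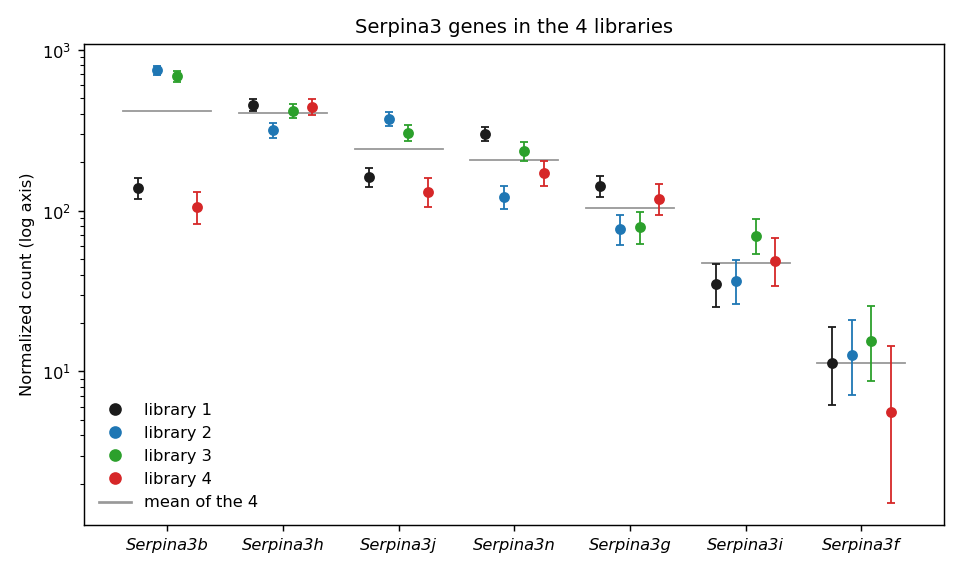
Normalized count (log axis) of the 7 Serpina3 genes with a mean of at least 10 in each of the 4 libraries, with exact 95% Poisson intervals of the reads as error bars and the mean of the 4 as a grey line. Serpina3b sits at 741 and 684 in libraries 2 and 3 and at 137 and 105 in libraries 1 and 4, whereas Serpina3h stays between 315 and 452.

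The remaining Serpina3 genes were low. Serpina3i had normalized counts of 34.8, 36.5, 69.3 and 48.9, highest in library 3. Serpina3f had 14, 15, 15 and 4 reads, a ratio of 2.78 in normalized counts whose interval of 0.886 to 11.5 included 1. Serpina3c had 9, 0, 5 and 2 reads, Serpina3m 4, 0, 0 and 2, Serpina3k 3, 2, 0 and 0, and Serpina3a 1 read in library 1 alone. Of these 4 genes, Serpina3c had intervals of its highest and lowest library that did not overlap, with normalized counts of 3.33 to 13.8 in library 1 and 0 to 3.13 in library 2, and at this depth no difference was detectable for the other 3.

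The make-up of the Serpina3 reads changed from library to library. Serpina3b took 10.98%, 44.3%, 37.9% and 10.3% of all Serpina3 reads in libraries 1 to 4, and Serpina3h took 36.1%, 18.8%, 23.1% and 43.0%. Per kilobase, Serpina3h ranked 1 among the Serpina3 genes in libraries 1 and 4, where Serpina3b ranked 4 and 5, and in libraries 2 and 3 Serpina3b ranked 1 and Serpina3h 2. The summed normalized count of the 11 genes was 1252, 1675, 1807 and 1020, and without Serpina3b it was 1114, 933, 1123 and 916. The myeloid, sebaceous, suprabasal and mast marker sums given above were also higher in libraries 2 and 3 than in libraries 1 and 4, with highest over lowest library at 2.09, 2.11, 3.10 and 5.17. Gene by gene, 4 of 7, 6 of 7, 1 of 2 and 4 of 6 solved markers of these lists had that order. For suprabasal and mast markers, library 2 had sums of 1017 and 176 against 883 and 138 in library 1. The melanocyte, fibroblast, endothelial, and interfollicular and infundibulum sums did not have that order, being higher in library 1 than in library 2. The sort kept live cells with high H2BGFP, high α6, high CD34 and no Sca1, a gate meant to leave such cells out, and their part in the Serpina3b values was not tested.

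Near-identical paralogs can lose or trade reads in counting, so their coding sequences were compared. Of 780 pairs among 40 coding members, 3 were at least 90% identical over aligned bases: Serpinb3b and Serpinb3c at 93.4%, Serpina3f and Serpina3i at 92.2%, and Serpina3k and Serpina3m at 91.8%. The 45 Serpina3 pairs ran from 74.9% to 92.2% with a median of 81.4%, against 61.1% over all pairs. Stretches as long as a 150-base read were nonetheless almost never shared. Of all 150-base windows of their transcripts, 7.36% were also in another gene for Serpina1e, 0.332% for Serpina3k and 0.331% for Serpina3m, and 0% for Serpina3b, Serpina3h, Serpina3j, Serpina3n and Serpina3g. How the counting treated reads with more than 1 place is not given in the sources used here, so its effect on the low values of Serpina3k, Serpina3m and Serpina1e is not known. Serpinb3c shared 0% of its windows. Its exons overlap those of Serpinb3b in GENCODE vM1, whereas the RefSeq bounds of these genes lie apart. Which annotation the counting used is not given in the sources used here, so whether an overlap touched its low value is not known.

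The Serpina3 promoters were compared in the same way. Over the 250 bases before the start, Serpina3c and Serpina3n were 91.6% identical, although their means were 3.81 and 206, and no other pair of the 8 promoters listed passed 74.0%. TATAAA was present in 4 of the 8, against 12.97% of all promoters, and the STAT motif in 3 of the 8, against 7.18%. The TATAAA of Serpina3b and of Serpina3a are shown because the genes with the highest and the lowest Serpina3 mean both hold it close to the start, and the 3 STAT matches because 2 of them share 9 letters.
Serpina3b TATA box, chr12:104127958-104127983, + strand: agtccctagaTATAAAtgtgcaccag
Serpina3a TATA box, chr12:104112685-104112710, + strand: atgtatgcttTATAAAgaaggcacct
Serpina3f STAT, chr12:104214413-104214441, + strand: tcagttctatTTCCTAGAAatcacccatt
Serpina3g STAT, chr12:104236104-104236132, + strand: taagttatagTTCCCAGAAatcacccggt
Serpina3i STAT, chr12:104263010-104263038, + strand: taagtgcttgTTCCCAGAAatcacccagt

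These TATAAA matches began 28 and 29 bases before the listed starts. Those of Serpina3c and Serpina3f lay farther off, 132 and 186 bases before the start. Serpina3n and Serpina3j, with means of 206 and 241, held no TATAAA in the window, and Serpina3h had no listed promoter. The STAT matches began 121, 33 and 102 bases before the starts of Serpina3f, Serpina3g and Serpina3i, whose means were 11.3, 103 and 47.4.

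Of the other clade a genes, Serpina9, known from germinal centre B cells, had normalized counts of 108, 105, 79.7 and 141, a 1.77-fold range. Serpina12, or vaspin, an inhibitor of the epidermal protease KLK7, had a mean of 44.5 with 34, 50, 95 and 7 reads. Its normalized counts of 27.5, 42.4, 98.3 and 9.77 spanned 10.1-fold (4.70 to 25.7), with library 3 high and library 4 low. T cells apart, library 3 also had the highest sum for 7 of the 8 marker lists of other cells, and library 4 the lowest for 8. The part of these cells in the Serpina12 values was not tested. Serpina5, Serpina6, Serpina7, Serpina10 and Serpina11 were listed at 0.

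Among the other clades, Serpinh1 had a mean of 3415. Serping1, the inhibitor of the first complement proteases, had normalized counts of 212, 151, 186 and 130. Serpinf1, the secreted factor PEDF, had 78.4, 73.0, 112 and 64.2. Serping1 and Serpinf1 were both lowest in library 4, as were 8 of the 8 summed lists of other cells, T cells apart. Serping1 was highest in library 1, whereas Serpinf1 and the fibroblast list were highest in library 3. The part of other cells in these values was not tested. Serpine2, or protease nexin 1, lay just under the level of 50 at 49.7 and Serpinb9 just over it at 50.2. In all, 20 members had means under 50, down to 0.202.

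Set beside all genes in the same range of means, the serpins spread widely between libraries. Of the 15 members with means from 50 to under 1000, 8 had a highest library at least 2-fold over the lowest, while 7.45% of the 7889 genes in this range did. Without library 1 the number was 5, against 5.01% of all genes. Those 8 were Serpina3b, Serpinb6e, Serpina3j, Serpinb6c, Serpinb7, Serpinb9, Serpina3n and Serpinb3b. Of these, Serpinb6e, Serpinb6c, Serpinb7, Serpinb9 and Serpinb3b had low means of 60.9, 60.1, 87.9, 50.2 and 51.1. The 7889 genes were not matched to the serpins by level, and with a minimum mean of 10 the share of all genes was 18.7%. The median ratio was 2.37 over the 15 members and 1.31 over all genes in the range. The counting intervals of the highest and the lowest library did not overlap for 15 of 15 members, against 54.7% of all genes. Wide ranges were not particular to serpins. Among solved markers with a mean of at least 50, 7 of 7 sebaceous, 3 of 3 melanocyte and 2 of 2 mast markers had a 2-fold range. So did 3 of 3 interfollicular and infundibulum, 3 of 4 myeloid, 2 of 3 fibroblast, 1 of 2 suprabasal and 0 of 2 HF-SC markers. Serpinb7 had normalized counts of 58.2, 75.5, 155 and 62.8, high in library 3, and Serpinb3b had 60.6, 28.8, 46.6 and 68.4, low in library 2. No library was the highest for more than 2 of the 8. The libraries differ in induction as well as in all else, which these ratios cannot tell apart, and intervals cover counting error only.

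**Figure D4:**
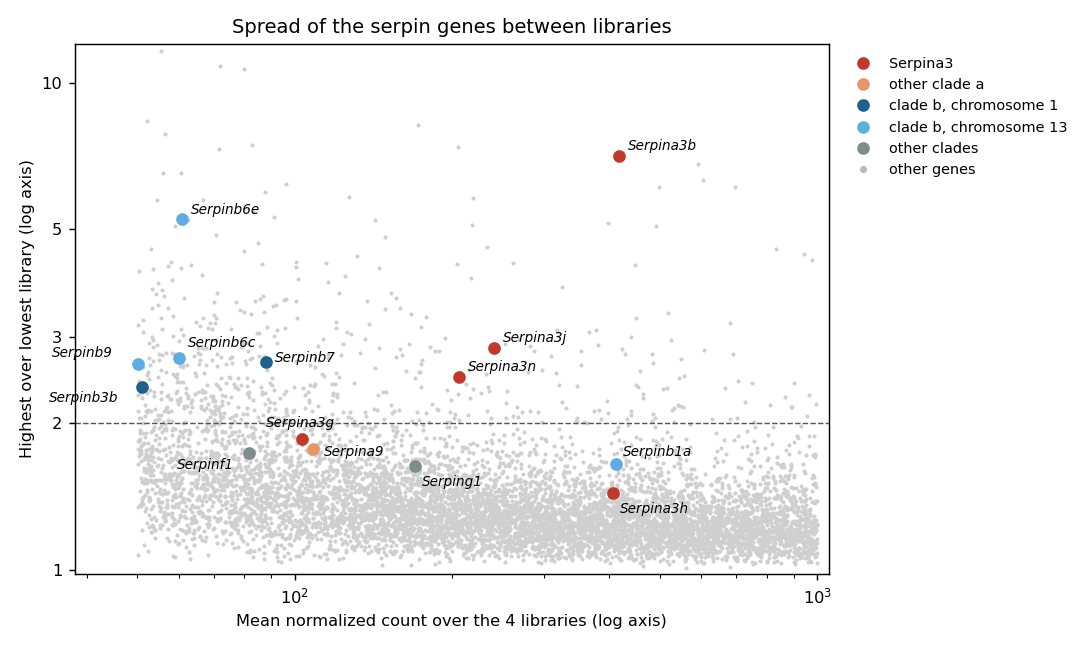
Ratio of the highest to the lowest library (log axis) against the mean normalized count (log axis) for genes with means from 50 to under 1000, grey for all genes and coloured for 14 of the 15 serpin genes; the dashed line is 2-fold, 8 genes lie above the top of the axis and 3 genes with a library at 0 are not drawn. Serpina3b at 7.08 and Serpinb6e at 5.24 stand farthest above the line.

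In order of mean per kilobase, each of the 35 solved members overlapped its next neighbour in the range over the 4 libraries, in 34 of 34 pairs. Serpina3h and Serpinb1a, for example, had means of 283 and 211 per kb, and the lowest library of the first, 219, lay under the highest of the second, 271. Such ranges do not compare the genes of a pair within the same library, so their overlap does not say whether neighbours differ.

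The proteases that serpins stop, the receptors and cofactors they use and other inhibitors were read from lists. Of 34 protease genes, 33 were in the table, 31 had a mean above 0 and 19 a mean of at least 50. The cysteine cathepsins Ctsb and Ctsl had means of 8613 and 6479, the plasminogen activators Plat and Plau 1008 and 195, and the kallikreins Klk7 and Klk5 457 and 65.4. The mast cell proteases Mcpt4 and Cma1 had means of 52.2 and 22.6, Gzmb had 0.776, and Elane and Gzma were listed at 0. Of the 13 solved protease genes with a mean of at least 50, 8 had a 2-fold range between libraries, a range shown by 7.45% of all genes with means from 50 to under 1000, with Mcpt4 at 8.36-fold and Klk7 at 2.55-fold. Plau, the target of Serpinb2, had a 1.11-fold range. All 9 cofactors and receptors had a mean above 0 and 8 of them at least 50, among them Plaur, the urokinase receptor, at 483 and the clearance receptor Lrp1 at 4702, and 0 of the 2 solved at that level had a 2-fold range, against the same 7.45%. Of 24 other inhibitors, 22 had a mean above 0 and 12 at least 50, with the Kazal inhibitor Spink5 at 833 and Spint1 at 652. A2m and Wfdc12 were listed at 0, and 1 of the 7 solved inhibitors with a mean of at least 50 had a 2-fold range, again against 7.45%.

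miR-205, the induced microRNA, pairs with its targets through bases 2 to 8, its seed. Its mature sequence lies at chr1:193507503-193507524 on the - strand of GRCm38.p6 and is shown with the seed in capitals, followed by the matches found in serpin 3′ untranslated regions with the complement of the seed in capitals.
mmu-miR-205-5p: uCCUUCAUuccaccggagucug
Serpinb2: taatttaataATGAAGGaaaaatatga
Serpinb7: agaaaccagaATGAAGGctaactcatt
Serpinb3b: caacaaaaggATGAAGGaatattttaa
Serpinb3c: caacaaaaggATGAAGGgatattttaa
Serpinb6b: catttagcagATGAAGGtgagagaatc
Serpinb9b: atgttctaagATGAAGGcactttctcc
Serpina12: cgtcttaaaaATGAAGGaaaaaaaaaa

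Of 39 serpin genes with an annotated 3′ untranslated region, 7 (17.9%) held the match, against 11.8% of 14417 genes with a mean above 0. None was a Serpina3 gene. Serpinb3b and Serpinb3c held it at nearly the same place, bases 222 and 223. Serpinb2, with a mean of 9927 over the libraries, was the sole member over 1000 with a match. Whether the matches are used was not measured.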

How the data were processed

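Bulk RNA-seq was made from 2 control and 2 miR-205-induced libraries with a strand-marking kit. Per the study's methods and the submitters' processing notes, the authors aligned paired-end reads of 150 bases to mm10 by HISAT2 2.1.0. SAMtools 1.3.1, HTSeq and DESeq2 followed for conversion, counting and comparison. The sources used here do not give the strand setting or the version of DESeq2. The values used are a deposited signal, the mean that the authors took over 4 libraries of counts scaled by size factors. The other deposited columns hold the authors' own fold changes, errors and p-values, and none was used. Columns with values of a single sample numbered 0.

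Each mean is a sum of 4 whole read counts, each divided by 4 times its size factor, and the means were printed with up to 15 digits. Genes with few reads gave the steps, and so size factors of 1.24, 1.18, 0.966 and 0.716. All 14591 genes with a mean above 0 and under 1000 then had exactly 1 set of 4 counts. Moved means served as a control, and 0%, 0.1% and 2.3% of 1000 in each of 3 ranges of the mean (under 50, to 500, to 1000) had any solution. The step was tested on simulated data for 14207 genes and gave the right counts for 100%. Larger means had several solutions and were left whole. Normalized counts are reads over the size factor. Counting intervals are exact Poisson at 95%, and those of ratios exact conditional binomial.

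Exon lengths, coding sequences and 3′ untranslated regions came from GENCODE vM1 on NCBIM37, with no coordinate taken from it. Gene places, promoters and miR-205 came from RefSeq on GRCm38.p6, the mm10 assembly, in which all 63 rows were matched by name. No table of proteins was used, so near-identity, planned on proteins, was computed on coding sequences. Named were all Serpina3 genes, all members with a mean of at least 50, the member on each side of that level and 3 lists, and other members named were chosen after their values were seen. The members and lists were chosen with earlier results of these data known. A withheld item is left unnamed and undrawn, though it is in the counts, medians and sums over members. No test between groups was run. Alternatives were other minimum means, lengths, backgrounds, folds, scalings and identity thresholds, and leaving out each library. Python 3.11.15, numpy 2.4.6, scipy 1.17.1, Biopython 1.88 and matplotlib 3.10.9 were used.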

Additional observations from a re-analysis of the deposited data

How the results depend on the processing

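No paired analysis was possible because the values that can be used do not say which library carries which replicate number. At a minimum mean of 50 in place of any value above 0, 22 serpin genes remained of 42. The median percentile of the 22 genes with a mean of at least 50 was 64.2 among genes above 0 and 41.0 among genes of at least 50. The number of serpin genes with a wide ratio between libraries was 8 at 2-fold, 14 at 1.5-fold and 2 at 3-fold, where 25.7% and 1.84% of all genes passed the last 2. It was 8 with libraries scaled by their summed reads, and 12 of 22 with a minimum mean of 10, where 18.7% of all genes passed. Leaving out 1 library, which was added after the values were seen, left 5 to 7 genes, the 5 without library 1. Leaving out 1 library gave median levels of 98.8 to 118 against 108 over the 15 genes solved, and changed single levels by factors of 0.741 to 1.25. Each shift was smaller than the gene's spread between libraries. Leaving out 1 library can never move a mean by more than that, so this comparison decides nothing. With the longest transcript, 10 of the 10 highest genes per kb were among the 10 highest given, and with the coding length 9. Order within them was not compared, and it depends on the length used. Serpinb5 has a higher mean than Serpinb2, 11187 against 9927, and fewer coding bases, 1128 against 1248, so by coding length it comes first. For Serpinb6a the exon length used was 5409 bases, while its longest transcript has 2191. Pairs of near-identical coding sequence numbered 3 at 90%, 32 at 80% and 2 at 90% with gaps counted. Depth limits the members under a mean of 10, whose libraries held at most 14 reads, and the 7 members over 1000 have no value per library.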
